A study of Homo sapiens with 6 samples.

Results

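The genes described here encode enzymes of glutathione synthesis and antioxidant defence: GCLC, GCLM, NQO1, HMOX1, TXN, TXNRD1, SOD1, SOD2, GPX1 and CAT. A probe set, the group of oligonucleotides that reads a gene on the array, was taken where the platform annotation gave it exactly 1 of these symbols, and 9 of the 10 genes had 1 such probe set each, of 12558 probe sets in all. SOD2 had none, since its probe set carries a second symbol. The annotation names 8226 genes in all. The cells were of the U373 line, which derives from a human glioblastoma, and their messenger RNA was hybridised to 6 Affymetrix U95Av2 arrays, 1 for each condition. Cells carrying a syk construct were treated with ethanol and 10 µM ponasterone A (PonA, a steroid that switches on genes in ecdysone-inducible systems) at day 1 and at day 2. The other syk-transfected cells were ethanol-treated at day 1, untreated at day 1 and untreated at day 2, and untransfected, untreated cells at day 1 complete the set. PonA exposure is labelled only as a range, 6 to 48 hours, so how long each array's cells were exposed is not known. Whether the transfected cells were 1 clone or a pool, and whether cultures were independent, is not given in the sources used here. No untransfected cells received PonA, so the inducer and the induced kinase cannot be told apart. The set holds no ethanol-only array of day 2, so at day 2 PonA and its solvent cannot be told apart either. Where a fit is used below, ethanol and untreated arrays together stand for cells without PonA.

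Glutathione is a small thiol peptide that keeps the cytosol reduced and serves as substrate for peroxidases and transferases. Its synthesis is limited by glutamate-cysteine ligase, an enzyme made of a catalytic subunit (GCLC) and a modifier subunit (GCLM). The transcription factor NRF2, encoded by NFE2L2 and held back by KEAP1, pairs with small MAF proteins on antioxidant response elements and drives GCLC, GCLM, NQO1, HMOX1, TXN and TXNRD1, while the superoxide dismutases, GPX1 and catalase remove superoxide and peroxides directly.

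The 5' flanks of the genes that stood furthest from their controls with PonA are shown first, because GCLC and GCLM form 1 enzyme and lay higher with PonA, whereas NQO1, a textbook NRF2 target like them, lay lower. The sequences are RefSeq windows of 250 bases before to 50 after the annotated start in GRCh38.p14, written 5' to 3' on the gene's own strand. Capitals mark the core of the antioxidant response element, TGACNNNGC, where it was found on either strand. They lie at chr6:53545052-53545351 (minus strand) for GCLC, at chr1:93909381-93909680 (minus strand) for GCLM and at chr16:69726511-69726810 (minus strand) for NQO1.
GCLC: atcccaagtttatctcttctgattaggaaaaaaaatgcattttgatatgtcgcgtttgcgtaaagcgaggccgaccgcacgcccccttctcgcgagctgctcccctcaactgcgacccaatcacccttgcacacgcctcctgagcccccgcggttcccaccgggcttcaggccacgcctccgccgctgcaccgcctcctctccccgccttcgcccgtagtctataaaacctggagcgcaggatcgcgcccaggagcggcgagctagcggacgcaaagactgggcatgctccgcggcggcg
GCLM: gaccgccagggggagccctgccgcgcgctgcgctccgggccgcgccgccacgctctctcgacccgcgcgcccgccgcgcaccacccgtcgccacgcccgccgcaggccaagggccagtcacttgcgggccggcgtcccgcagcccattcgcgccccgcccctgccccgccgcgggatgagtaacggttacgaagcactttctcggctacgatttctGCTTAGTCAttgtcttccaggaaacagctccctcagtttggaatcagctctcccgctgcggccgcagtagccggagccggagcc
NQO1: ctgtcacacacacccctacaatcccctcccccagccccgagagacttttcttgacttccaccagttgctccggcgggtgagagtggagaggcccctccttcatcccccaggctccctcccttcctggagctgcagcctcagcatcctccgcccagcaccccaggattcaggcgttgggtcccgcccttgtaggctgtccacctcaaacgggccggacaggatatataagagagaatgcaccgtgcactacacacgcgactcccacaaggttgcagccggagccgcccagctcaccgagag
GCLM held 1 match, tgactaagc on the opposite strand, whose leftmost base on the gene's strand lies at -34 from the start. The GCLC and NQO1 windows held none. Sequence beyond the windows was not searched, so these genes may carry the element further from the start. TXNRD1 had 2 annotated starts, and its windows held 2 matches and 1 match, read as tgacttcgc, tgacggagc and tgacaaagc. None of these matches overlapped the related AP-1 element TGANTCA on either strand. The windows of TXN, GPX1, CAT and SOD2 held no match, and HMOX1 and SOD1 were not analysed here for sequence. Of the 10 listed genes 8 had a window, some of them more than 1, and 2 had a match. Counted by window and not by gene, 13.3% of the 35116 windows in the RefSeq table held one, so the 2 counts are not alike. A match is a description of these windows and not a site.

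GCLC, the catalytic subunit of glutamate-cysteine ligase, rose with PonA and was the 1 gene of the 9 to pass the threshold. Its deposited signal, a MAS5 intensity on a linear scale, was 336 with PonA at day 1 and 280 with PonA at day 2, against 112 with ethanol at day 1, 117 untreated at day 1 and 145 untreated at day 2. Both PonA arrays lay above all 3 transfected arrays without PonA. In a limma fit over the 5 transfected arrays, with terms for PonA and day, the effect was 2.46-fold, or 1.30 ± 0.20 on the log2 scale (SE, 2 arrays with and 3 without PonA, adjusted p = 0.0207). By single arrays, the PonA signal of GCLC was 3.0 times that of ethanol and 2.88 times that of untreated cells at day 1. At day 2 it was 1.93 times that of untreated cells. In bulk RNA, a change per cell and a change in the share of cells that express a gene cannot be told apart. Over all 7934 probe sets tested, 402 or 5.07% passed in either direction, 2.70% higher and 2.37% lower, and 1 of the 9 genes is to be read beside that background. Without the PonA array of day 1 the log2 effect of GCLC was 0.95 and its adjusted p 0.201.

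GCLM, the modifier subunit, had the same direction as its partner but did not pass the threshold. It gave 197 with PonA at day 1 and 149 with PonA at day 2, against 78.1 (ethanol) and 114 (untreated) at day 1 and 93.4 untreated at day 2. The PonA arrays did not overlap the others here either, although the ethanol and untreated arrays of day 1 stood apart by 0.54 on the log2 scale, with ethanol the lower. The PonA effect was 1.86-fold (log2 0.89 ± 0.23, SE, adjusted p = 0.0836, 95% interval 0.35 to 1.44). Without the untreated array of day 1 it was 1.00 with an adjusted p of 0.0393. That was the only 1 of 5 fits leaving out 1 array in which GCLM passed, and their log2 effects were 0.67 to 1.06. GCLM passed in 0 of the 8 alternative settings that kept all 5 transfected arrays (limma adjusted p 0.0593 to 0.219). The GCLM probe set carries the suffix r, Affymetrix's mark for a set chosen with relaxed design rules, so its level is less certain than that of the others.

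NQO1 encodes a quinone reductase that spares cells the redox cycling of quinones. It gave 250 with PonA at day 1 and 204 with PonA at day 2, against 367 (ethanol) and 408 (untreated) at day 1 and 429 untreated at day 2. Both PonA arrays thus lay below every transfected array without PonA. The PonA effect was -0.82 ± 0.19 on the log2 scale, a ratio of 0.567 (SE, adjusted p = 0.0635, 95% interval -1.27 to -0.37), and missed the threshold. It passed in 3 of the 8 alternative settings that kept all 5 transfected arrays, and without the ethanol array (log2 -0.89, adjusted p = 0.0311). The latter was the only 1 of 5 fits leaving out 1 array in which NQO1 passed, and their log2 effects were -1.07 to -0.63. HMOX1, the inducible haem oxygenase that breaks haem down to biliverdin, iron and carbon monoxide, gave 48.4 with PonA at day 1 and 72.1 with PonA at day 2, against 37.8 (ethanol) and 36.4 (untreated) at day 1 and 49.7 untreated at day 2. Among transfected arrays the PonA array was the highest within each day, but the groups overlapped across days, and the effect was 0.45 ± 0.17 on the log2 scale (SE, adjusted p = 0.204).

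**Figure D1:**
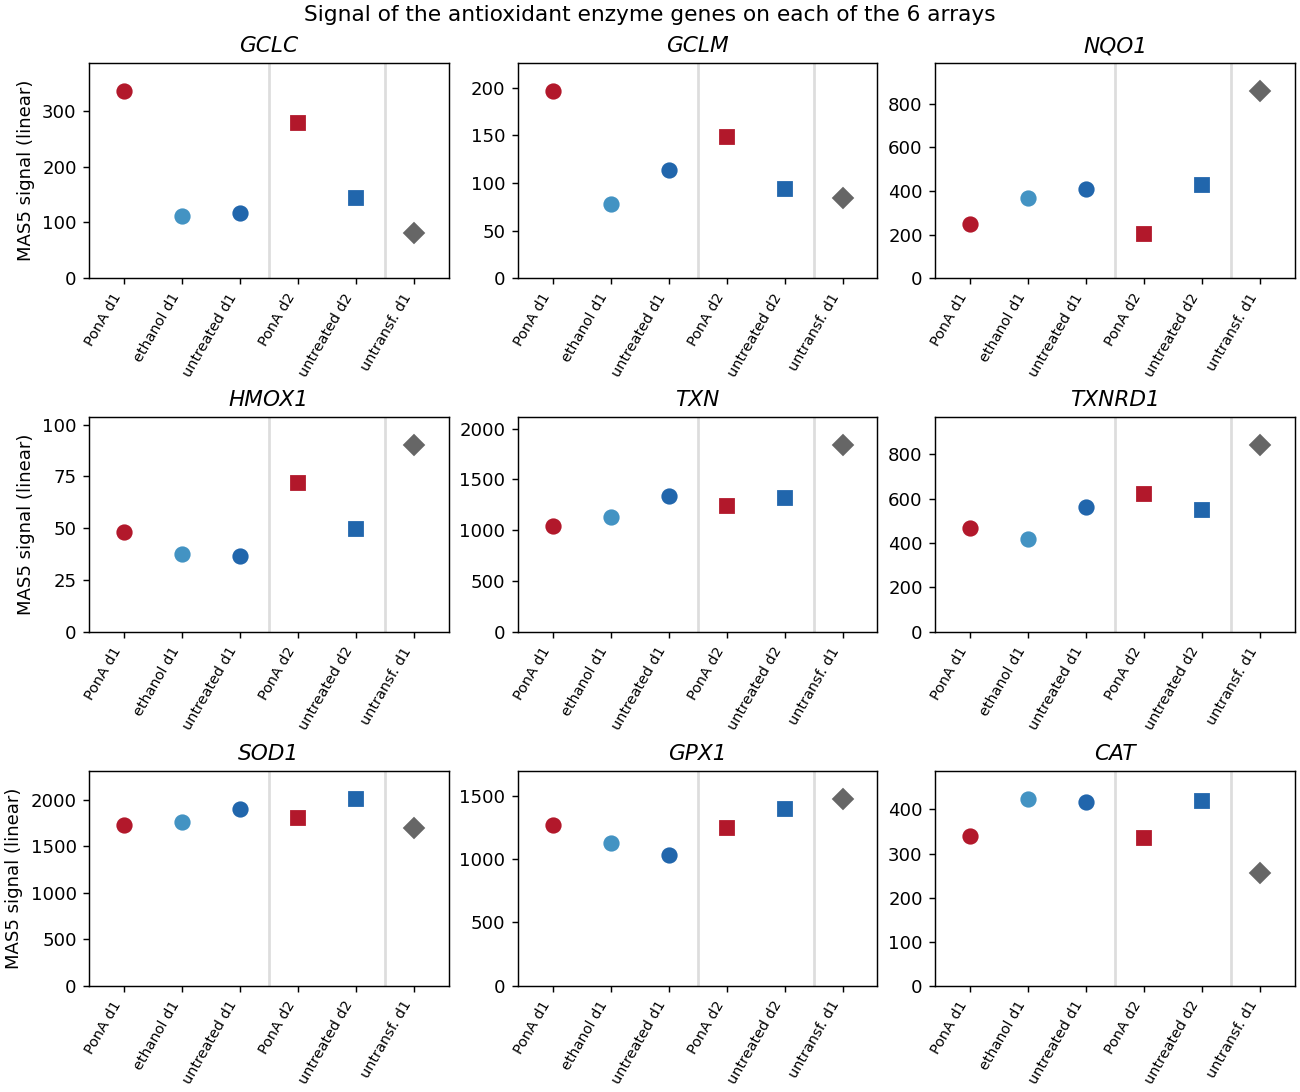
MAS5 signal on a linear axis from 0 for each of the 9 measured genes, with 1 point per array (d1 and d2, day 1 and day 2; untransf., untransfected; red, PonA; blue, ethanol or untreated; grey, untransfected). GCLC reaches 336 and 280 on the PonA arrays, against at most 145 on the other transfected arrays, and NQO1 is highest in untransfected cells at 858.

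Thioredoxin (TXN) reduces disulfides in other proteins, and thioredoxin reductase (TXNRD1) recharges it with electrons from NADPH. TXN gave 1040 with PonA at day 1 and 1233 with PonA at day 2, against 1125 (ethanol) and 1338 (untreated) at day 1 and 1320 untreated at day 2. TXNRD1 gave 466 with PonA at day 1 and 619 with PonA at day 2, against 419 (ethanol) and 564 (untreated) at day 1 and 547 untreated at day 2. The groups overlapped for both genes, and the log2 PonA effects were -0.18 ± 0.18 (SE, adjusted p = 0.651) for TXN and 0.04 ± 0.20 (SE, adjusted p = 0.941) for TXNRD1. Their 95% intervals, -0.60 to 0.25 for TXN and -0.44 to 0.53 for TXNRD1, bound what a change could have been.

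SOD1, the copper-zinc superoxide dismutase of the cytosol, was among the steadiest genes of the set. It gave 1726 with PonA at day 1 and 1803 with PonA at day 2, against 1757 (ethanol) and 1896 (untreated) at day 1 and 2013 untreated at day 2. Over all 6 arrays its range was 0.24 on the log2 scale, the smallest of the 9, and the PonA effect was -0.11 ± 0.17 (SE, adjusted p = 0.772, 95% interval -0.51 to 0.28). GPX1, the glutathione-using peroxidase of the cytosol, gave 1271 with PonA at day 1 and 1248 with PonA at day 2, against 1123 (ethanol) and 1028 (untreated) at day 1 and 1395 untreated at day 2. PonA was therefore the higher at day 1 and the lower at day 2, and the effect over both days was 0.07 ± 0.18 (SE, adjusted p = 0.884). The suffix s of the GPX1 probe set marks probes shared by several transcripts, so other transcripts may add to it. Catalase (CAT), the peroxisomal enzyme that splits hydrogen peroxide, gave 340 with PonA at day 1 and 334 with PonA at day 2, against 425 (ethanol) and 418 (untreated) at day 1 and 420 untreated at day 2. These 2 groups did not overlap, each was tight, and the difference was small: -0.32 ± 0.16 on the log2 scale, a ratio of 0.802 (SE, adjusted p = 0.357).

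Across the 9 genes, both PonA arrays lay above all transfected arrays without PonA for GCLC and GCLM and below them for NQO1 and CAT, each 22.2% of the genes. Among all tested probe sets 16.6% lay above and 15.4% below in this way, so these counts are close to the background. The median log2 PonA effect was 0.04 over the 9 genes and 0.005 over all probe sets tested. By single arrays, GCLC and GCLM were at least 2-fold from ethanol with PonA at day 1 (5.62% of probe sets were, in either direction). GCLC alone of the 9 was 2-fold from untreated at day 1 (6.71%), and NQO1 alone at day 2, where it was lower (8.71%). At an unadjusted p under 0.05 stood 4 of the 9, GCLC, GCLM, NQO1 and HMOX1, against 19.5% of all probe sets.

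**Figure D2:**
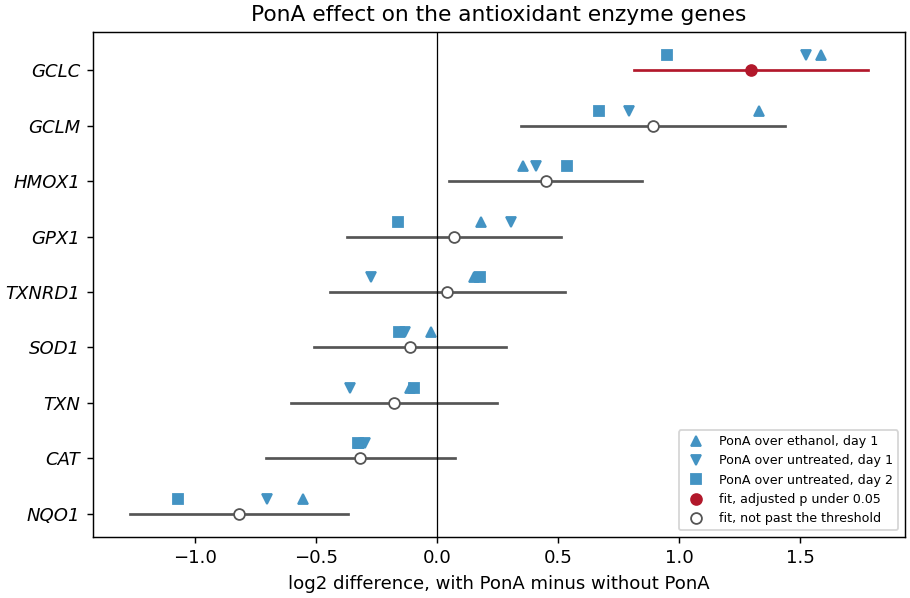
Log2 PonA effect of the additive limma fit (circles) with its 95% interval (lines) for the 9 genes, and the 3 single-array differences beside it (triangles, day 1; squares, day 2). GCLC at 1.30 is the filled circle past the threshold, and NQO1 at -0.82 is the lowest.

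A PonA-by-day term was fitted to ask whether the 2 days differed in their PonA effect, and it leaves 1 residual degree of freedom. None of the 7934 probe sets passed in limma (0%; 330, or 4.16%, at an unadjusted p under 0.05), and none of the 9 genes had an unadjusted p under 0.05. For GCLC the term was -0.60 ± 0.39 on the log2 scale (SE, unadjusted p = 0.169, adjusted p = 1), for NQO1 -0.44 ± 0.40 (SE, unadjusted p = 0.304) and for GPX1 -0.40 ± 0.40 (SE, unadjusted p = 0.344). These intervals are wide, from -1.53 to 0.33 for GCLC, so a difference between days of about that size was not detectable with 1 array per condition.

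Day 2 was set against day 1 with the day term of the additive fit, over 2 and 3 arrays. In limma it called 0 of 7934 probe sets (0%; 1048, or 13.2%, at an unadjusted p under 0.05). HMOX1 had the largest effect of the 9 genes, 0.49 ± 0.17 on the log2 scale (SE, unadjusted p = 0.0238, adjusted p = 0.326). By single arrays it was 1.49-fold higher at day 2 than at day 1 with PonA and 1.36-fold higher in untreated cells. The other 8 genes had day effects between -0.18 for GCLM and 0.27 for TXNRD1. The 3' to 5' signal ratio of beta-actin, a measure of RNA integrity, was 1.20 with PonA and 1.21 untreated at day 2. On the transfected arrays of day 1 it was 0.976 to 0.987. The same ratio for GAPDH was 1.04 with PonA and 0.946 untreated at day 2. On the transfected arrays of day 1 the GAPDH ratio was 0.939 to 1.01, so it showed no like shift. The part of RNA integrity in the day effects was not tested.

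Ethanol, the solvent of PonA, was set against no treatment at day 1 on 1 array each, without a replicate check. None of the 9 genes was 2-fold apart, against 2.18% of 8015 probe sets. After GCLM, the gene with the largest difference was TXNRD1, with 419 in ethanol against 564 untreated, or -0.43 on the log2 scale. TXN stood at -0.25 on that scale, and the other 6 genes lay between -0.15 for NQO1 and 0.13 for GPX1. The 9 probe sets for spike-in controls had a geometric mean signal of 271 in the ethanol hybridisation, against 474 in the untreated one of that day. The part of this gap in these differences was not tested.

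Transfected cells were set against untransfected cells on 1 untransfected array, so the differences have no test. NQO1 was 408 in transfected and 858 in untransfected cells, both untreated at day 1, a ratio of 0.476. HMOX1 was 36.4 in transfected and 90.3 in untransfected cells, a ratio of 0.404. These were the 2 genes at least 2-fold lower in transfected cells, a share of the set to read beside 2.64% of 8045 probe sets, and none was 2-fold higher (background 3.08%). On all 5 transfected arrays NQO1, HMOX1, TXN, TXNRD1 and GPX1 lay below the untransfected array, which is 55.6% of the genes against 20.8% of probe sets. GCLC, SOD1 and CAT lay above it on all 5, or 33.3% against 20.1%.

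The size of that gap varied by gene. NQO1 on the transfected arrays was 0.238 to 0.500 times its untransfected signal, HMOX1 0.404 to 0.798 times, TXN 0.565 to 0.727 times and TXNRD1 0.498 to 0.735 times. Of the 9 genes, 0 were at least 2-fold below the untransfected array on all 5 transfected arrays, NQO1 only just missing. TXN itself stood at 1840 and TXNRD1 at 842 in untransfected cells. GPX1 was 0.696 to 0.945 times its untransfected signal of 1477. CAT was 1.31 to 1.67 times its untransfected signal of 255, and GCLC 1.40 to 4.19 times its untransfected signal of 80.3, the upper end being the PonA array of day 1. GCLM, at 84.3 in untransfected cells, lay on either side, at 0.927 to 2.33 times. The gap was thus lower signal in transfected cells for the thioredoxin pair, NQO1, HMOX1 and GPX1, and higher signal for catalase and GCLC. The spike-in geometric mean was 271 to 501 on the transfected arrays and 157 on the untransfected array, and the astroglial gene GFAP was 103 to 229 on the transfected arrays and 1533 on the untransfected array. Summed over 8 astroglial and glioma markers, the signal was 9500 to 10783 on the transfected arrays and 11515 on the untransfected array. VIM was the largest part of that sum, at 4919 to 6458 on the transfected arrays and 5101.5 on the untransfected array. The sum therefore says little about the weaker markers. Over 4 neuronal markers it was 101 to 367 on the transfected arrays and 762 on the untransfected array, and among them NEFL, a neurofilament gene, gave 10.1 to 26.5 on the transfected arrays and 458 on the untransfected array. The part of these differences in the result was not tested.

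**Figure D3:**
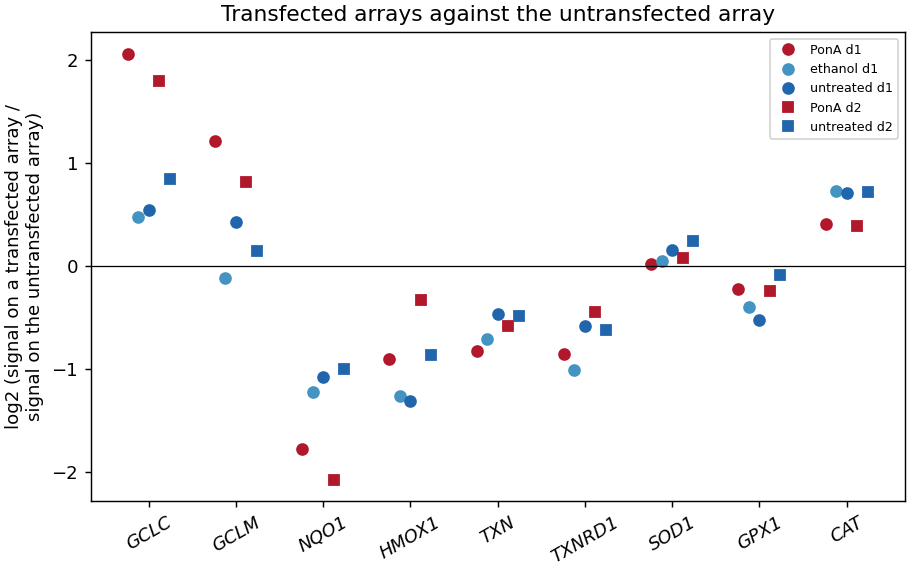
Log2 ratio of each transfected array to the single untransfected array for the 9 genes, with 1 point per transfected array (red, PonA; blue, ethanol or untreated; circles, day 1; squares, day 2). NQO1, HMOX1, TXN, TXNRD1 and GPX1 lie below 0 on all 5 arrays, and GCLC, SOD1 and CAT above it.

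NQO1 had the widest range of the 9 genes over the 6 arrays, 2.07 on the log2 scale, just ahead of GCLC. Among 5727 other probe sets with 1 symbol and above the floor on every array, the ones most like it over the 6 arrays were those of PTPA (Pearson r 0.994), S100A4 (0.993) and DHX30 (0.990). The PTPA and S100A4 probe sets carry the suffixes f and s, so other transcripts may add to them, as for GPX1. These likenesses are descriptions of 6 arrays that share scaling and in which the untransfected array is the highest point.

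The wider pathway was read from 6 gene lists, where the brightest probe set stands for a gene. Outside the 9 genes, 53 listed genes were tested with PonA, of which 3 rose and 0 fell. That is 5.66%, against 5.07% of all probe sets, and their median log2 effect was 0.016. Each list count of genes that rose is to be read beside the 2.70% of all probe sets called higher.

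In glutathione synthesis and recycling, 2 of 12 tested genes rose, GCLC and CTH, and none fell, with a list median of 0.25. CTH, cystathionine gamma-lyase, makes cysteine for glutathione. It gave 49.6 with PonA at day 1 and 51.6 with PonA at day 2, against 27.9 (ethanol) and 22.1 (untreated) at day 1 and 15.5 untreated at day 2. The PonA arrays lay well apart, but both untreated arrays were under the floor, the 40th percentile of each array (22.7 to 26.5), to which lower signals were set, so the fold over untreated cells at day 2 is at least 2.23. CTH was tested because both PonA arrays and the ethanol array were above the floor, and its fitted effect rests partly on floor values. That effect was 0.99 ± 0.17 on the log2 scale (SE, adjusted p = 0.0281), a call lost without either PonA array or without the untreated array of day 2 (adjusted p 0.129 to 0.222). CBS, the enzyme before CTH in the transsulfuration pathway, gave 56.3 with PonA at day 1 and 59.97 with PonA at day 2, against 40.6 (ethanol) and 15.96 (untreated) at day 1 and 10.9 untreated at day 2. The untreated arrays were again under the floor, and PonA was 1.39-fold above ethanol. The fitted effect was 1.04 ± 0.26 (SE, adjusted p = 0.0779). It was 1.71 with the floor at the 20th percentile (adjusted p = 0.247) and 1.23 without the ethanol array (adjusted p = 0.00591). The latter was the only 1 of 5 fits leaving out 1 array in which CBS passed, and their log2 effects were 0.79 to 1.37. CBS passed in 0 of the 7 alternatives that kept all 5 transfected arrays. GSS, which adds glycine to finish glutathione, and GSR, which reduces it after use, had log2 effects of 0.26 and 0.02, with adjusted p of 0.515 and 0.975.

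Glutathione transferases, which couple glutathione to foreign compounds, did not pass the threshold in any of 9 tested genes, and their median effect was -0.13. GSTA4, which clears lipid peroxidation aldehydes, had the largest effect at 0.67 ± 0.17 (SE, adjusted p = 0.0863), and passed with an intensity trend in eBayes (adjusted p = 0.0234). That was the only 1 of the 8 alternatives keeping all 5 transfected arrays in which it passed. GSTA4 did not pass with any 1 array left out. GSTO1 stood at -0.25 (adjusted p = 0.505) and GSTM5 at 0.24 (adjusted p = 0.598). Among peroxidases and peroxiredoxins 0 of 9 passed. After CAT, the effects largest in size were those of PRDX6 at 0.29 (adjusted p = 0.520) and GPX4, which reduces lipid peroxides in membranes, at 0.28 (adjusted p = 0.462).

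Of 8 tested thioredoxin, glutaredoxin and superoxide dismutase genes none passed. TXNIP, which binds and inhibits thioredoxin, gave 66.4 with PonA at day 1 and 68.3 with PonA at day 2, against 188 (ethanol) and 102 (untreated) at day 1 and 228 untreated at day 2. Its PonA arrays lay below the others, and the effect was -1.35 ± 0.31 (SE, adjusted p = 0.0632). It passed in 2 of the 8 alternatives that kept all 5 transfected arrays (adjusted p of 0.0429 and 0.0282), without the ethanol array (0.0268) and without the untreated array of day 1 (0.00275). TXNIP passed in only these 2 of the 5 fits leaving out 1 array, whose log2 effects were -1.74 to -1.06. In untransfected cells TXNIP stood at 401. GLRX, a glutaredoxin, had an effect of 0.42 (adjusted p = 0.383).

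Among NRF2 regulators, 1 of 5 tested genes rose. MAFF, which encodes a small MAF partner, gave 112 with PonA at day 1 and 255 with PonA at day 2, against 56.2 (ethanol) and 53.4 (untreated) at day 1 and 92.3 untreated at day 2. The effect was 2.33-fold (log2 1.22 ± 0.18, SE, adjusted p = 0.0186), and the call was lost without either PonA array or without the untreated array of day 2 (adjusted p 0.0597 to 0.142). Its untransfected signal of 140 lay between the PonA arrays. KEAP1, the inhibitor of NRF2, had an effect of -0.51 ± 0.16 (SE, adjusted p = 0.148), NFE2L1, an NRF2 relative, one of 0.31 (adjusted p = 0.401), and NFE2L2 itself one of 0.05 (adjusted p = 0.928).

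Of 17 tested NRF2 targets outside the 9 genes, 1 rose and the median effect was -0.08. ABCC3, a membrane exporter of organic anions and glucuronides, gave 980 with PonA at day 1 and 1113 with PonA at day 2, against 351.5 (ethanol) and 233 (untreated) at day 1 and 274 untreated at day 2. It rose 3.68-fold (log2 1.88 ± 0.23, SE, adjusted p = 0.00863), and its second probe set had a log2 effect of 1.78 ± 0.17 (SE, adjusted p = 0.00441). The call on the brighter probe set was lost without the PonA array of day 2 (adjusted p = 0.0505). The pentose phosphate enzyme genes TALDO1 and TKT, which feed NADPH supply, had effects of -0.66 ± 0.17 and -0.64 ± 0.17 (SE, adjusted p of 0.0867 and 0.0922). Both passed with an intensity trend in eBayes (adjusted p of 0.0154 and 0.0129). For each gene this was the only 1 of the 8 alternatives keeping all 5 transfected arrays that passed. Neither gene passed with any 1 array left out. Of the 17 genes, 8 had a positive and 9 a negative effect.

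**Figure D4:**
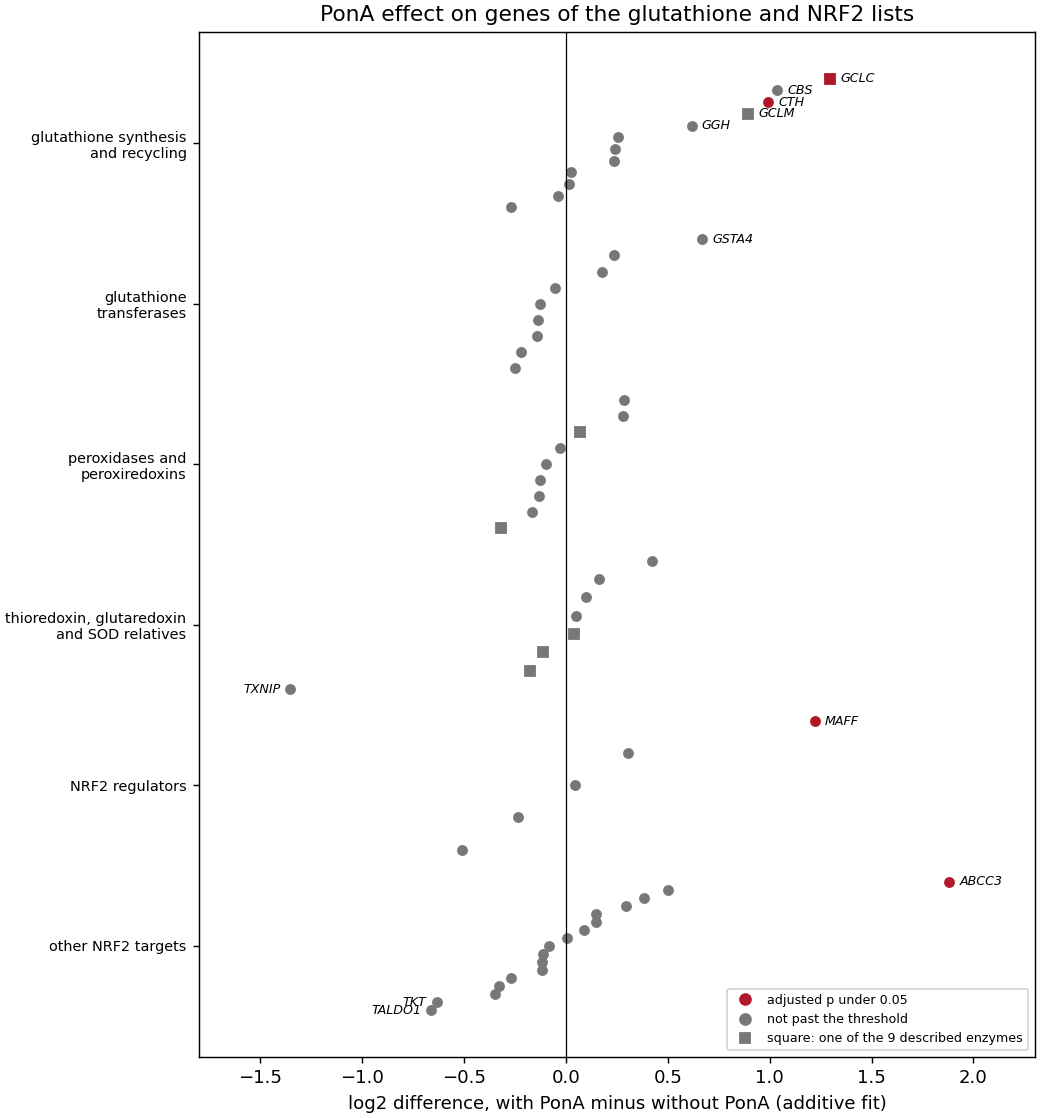
Log2 PonA effect of the additive fit for each tested gene of the 6 lists, on the brightest probe set (circles, or squares for the 9 described enzymes; red, adjusted p under 0.05). GCLC, CTH, MAFF and ABCC3 are the red points, all above 0, and TXNIP at -1.35 is the lowest point.

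Trimmed mean signals were 150.07 to 150.08; MAS5 commonly scales arrays to a shared trimmed mean, so this carries no information on array quality. SYK, the transfected gene, gave 39.1 with PonA at day 1 and 72.5 at day 2 on 1 of its 3 probe sets, against 14.4 to 22.2 on the transfected arrays without PonA. Those 3 signals are under the floor, so this probe set was tested only because the PonA arrays are above it, and its adjusted p of 0.0803 rests on floor values. The brightest SYK probe set, at 22.0 to 73.1, overlapped between these groups, and the third stayed under the floor. Of 8 astroglial and glioma markers 5, GFAP, VIM, CD44, FABP7 and GJA1, were above the floor on all 6 arrays, and AQP4 was under it on all. Of the 7 tested, 1 rose with PonA: SLC1A3, an astroglial glutamate transporter, gave 193 at day 1 and 225 at day 2 with PonA, against 22.8 to 38.8 on the other transfected arrays, 1 of them under the floor (log2 2.88 ± 0.26, SE, adjusted p = 0.0041). Of 3 tested neuronal markers, 1 fell: GAP43, a growth cone gene, gave 64.7 at day 1 and 75.7 at day 2 with PonA, against 184 to 322 on the other transfected arrays (log2 -1.83 ± 0.20, SE, adjusted p = 0.00599). Of 5 haematopoietic markers, PTPRC, CD14 and LYZ were under the floor on all 6 arrays, while CD3E at 58.7 to 83.2 and HBB at 27.8 to 44.0 were above it. Of 5 fibroblast and epithelial markers, COL3A1 and EPCAM were under the floor on all 6 arrays. COL1A1 and KRT18 were above it on all 6, and neither passed. COL1A1 gave 121 at day 1 and 47.1 at day 2 with PonA, against 32.5 to 41.7 on the other transfected arrays (log2 1.19 ± 0.30, SE, limma adjusted p = 0.083). Its second probe set stood at 0.10. The part of these markers in the PonA results was not tested. Of 10 proliferation markers 9 fell with PonA, and the median log2 effect was -2.32. Over all probe sets tested, 2.70% rose and 2.37% fell with a median of 0.005, the background to these marker counts. A lower level of cycling-cell transcripts thus moved with every PonA result above, and its part in them was not tested.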

How the data were processed

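The authors deposited 1 table of signal intensity per probe set on a linear scale. It was made with MAS5, per the submitters' processing notes, which condenses the probes of a set into 1 value. A software version and a genome build are not given in the sources used here, and detection calls were not used. The trimmed mean, without the lowest and highest 2% of probe sets, is nearly equal on the 6 arrays, so no further scaling was applied. Symbols came from the platform annotation, updated through Entrez identifiers to a RefSeq table: of 12558 probe sets that are no controls, 10943 had 1 symbol (10934 matched the table), 545 several and 1070 none.

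Each array's 40th percentile was taken as a floor, and lower signals were raised to it before log2. Probe sets above it on at least 2 of the 5 transfected arrays (7934) were fitted with limma 3.58.1 in R 4.3.3 (lmFit, eBayes), with Benjamini-Hochberg adjustment over all of them and a threshold of 0.05. The additive fit leaves 2 residual degrees of freedom, into which the ethanol difference and any PonA-by-day difference fall, plus 4.48 prior ones; p-values measure spread between these arrays and not between repeated cultures. All 9 genes were above the floor on all 6 arrays. Comparisons of 1 array with 1 array have no test. The number of arrays limits precision. The fit was run on simulated data, with changes larger than those of the 9 genes and only in bright probe sets. The simulation held no ethanol or PonA-by-day difference, so it does not bear on the calls given here.

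The genes, lists and alternatives were chosen with earlier results of these data known. Of each list, genes past the threshold were named, and where fewer than 3 passed, the 3 with the largest effect in size; GSS, GSR, NFE2L2 and the marker genes were named outside that rule. Alternatives changed the floor, the normalization, the filter, the eBayes prior and the arrays used.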

Additional observations from a re-analysis of the deposited data

Results flagged for a closer look

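The probe set annotated to both SOD2 and SOD2-OT1, left out of the report because it has 2 symbols, had a PonA signal above both controls at day 1, which is why it is given here. It read 87.8 with PonA at day 1, against 63.9 in the ethanol control and 57.2 in untreated cells. At day 2 it read 21.2 with PonA, which is under the floor of every array, against 58.3 untreated, and untransfected cells gave 86.0. Its log2 PonA effect over both days was -0.28 ± 0.41 (limma SE, adjusted p = 0.776), and its PonA-by-day term was -1.90 (unadjusted p = 0.00209, adjusted p = 0.917). Both values rest on the floor at day 2, so they understate how low that signal is.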

How the results depend on the processing

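The PonA effects of GCLC, GCLM, NQO1, HMOX1, TXN, SOD1 and CAT kept their direction under all 13 alternatives, while GPX1 and TXNRD1, near 0, changed sign without single arrays. GCLC lay between 1.20 and 1.30 on the log2 scale under the 8 alternatives that kept all transfected arrays and passed in 6 of them; it missed with the floor at the 20th percentile (adjusted p = 0.0947) and without a filter (adjusted p = 0.0780). The calls of CTH, MAFF and ABCC3 were lost in the same 2 settings (adjusted p 0.0598 to 0.124). The count of the 9 genes called was 0 in those 2 settings, 2 without a floor, 2 with probe sets above the floor on all 5 arrays and 2 with an intensity trend, and 0 to 2 when single arrays were left out. Over all probe sets the PonA count of 402 was 107 with the lower floor, 29 without a filter and 625 with the trend, and 111 to 725 without single arrays. The day count of 0 was 1 with median centring, 2 with the trend and 0 to 16 without single arrays, and the PonA-by-day count of 0 was 86 without a filter. With the lower floor, the probe sets at least 2-fold apart were 861 in place of 175 for ethanol and 1329 in place of 460 for transfection. The cause of these moves was not tested. No paired analysis was possible because the labels give no replicate numbers; arrays of the same day are compared through the day term of the fit. In addition, the PonA-by-day test could not be fitted without either control of day 1.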
